A study of Homo sapiens with 12 samples.

Results

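Glutathione transferases join the thiol of glutathione to electrophilic compounds, which makes these compounds more soluble and lets them be exported from the cell. The cytosolic enzymes fall into classes named by Greek letters (alpha, mu, pi, omega and zeta among them), a kappa class enzyme sits in mitochondria, and the microsomal enzymes are unrelated membrane proteins with a similar activity. Several of their genes are textbook targets of NRF2, which binds antioxidant response elements as a dimer with a small MAF protein, and they are therefore often read as markers of this pathway. The 10 genes described here are GSTA4 (alpha), GSTM1, GSTM2, GSTM3 and GSTM4 (mu), GSTP1 (pi), GSTK1 (kappa), GSTO1 (omega), GSTZ1 (zeta) and MGST1 (microsomal), taken by symbol from a table of 38019 genes whatever their values. All 10 passed the filter on low counts, which kept 15135 genes for testing.

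The study asked which transcripts and proteins change when each of 3 related Cap'n'collar transcription factors is overexpressed. HEK293T cells, a line derived from human embryonic kidney, were transfected for 24 h. They received empty vector or a plasmid for FLAG-NRF1, FLAG-NRF2 carrying the T80D substitution, or FLAG-NRF3. Total RNA of 3 biological replicates for each condition was sequenced. All cells, the empty vector controls included, went through transfection. The study names FuGENE as the reagent in its immunoblot methods, and its RNA sequencing methods name none. The FLAG tag is at the N-terminus, the NRF1 and NRF3 sequences are codon-optimized and truncated, and T80D was chosen by the study to weaken the hold of the repressor KEAP1 on NRF2. Expression was transient, in 1 cell line, so each library is a mixture of cells that took up the plasmid and cells that did not, and a change in more cells cannot be told apart from a larger change in fewer cells.

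Total counts per library were 13452524 to 14014316. The NRF2 libraries had 10363 CPM (a count relative to the scaled total of its library) of NFE2L2, the gene for NRF2, against 91.7 CPM with empty vector. NFE2L1 with NRF1 and NFE2L3 with NRF3 were not called different from empty vector (log2 fold changes of 0.12 and 0.15), and whether the codon-optimized transgenes were counted under these symbols was not tested. HMOX1, the heme oxygenase gene induced through antioxidant response elements, rose from 62.0 CPM to 557 CPM with NRF1, 1396 CPM with NRF2 and 344 CPM with NRF3. Of the genes usual in this line, VIM (482 CPM), CDH2 (142 CPM) and NEFM (113 CPM) were present with empty vector. PAX2, also usual in this line, was low there at 1.91 CPM (19 to 30 counts a library). The mature kidney markers UMOD, SLC12A1 and AQP2 had no count there, which allows up to 3 counts a library. NPHS1, a further kidney marker, had 0 to 1 counts a library with empty vector. With NRF2, VIM fell (log2 fold change -0.50) while NEFM (1.01) and NEFL (0.42) rose, and their part in the results below was not tested. Libraries 2 and 3 of NRF3 stood apart: their median absolute deviation from the condition mean over all genes was 0.146 and 0.145 on the log2 scale, against 0.0930 or less in the other 10 libraries.

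The promoters of the 10 genes are shown first, since the transcription factors studied recognise a short DNA element. The core of the antioxidant response element was searched as TGACNNNGC and, in its other accepted form, TGAGNNNGC, on both strands of RefSeq windows (GRCh38.p14) that run from 250 bases before to 50 bases after an annotated transcription start. All 10 genes were matched by symbol, with 12 windows, because MGST1 has 3 annotated starts. The window of GSTP1, on chromosome 11, held TGACTCAGC at positions -66 to -58 from the start, and also TGAGTACGC at 35 to 43. The 250 bases before the GSTP1 start, chr11:67583562-67583811 on the plus strand, are printed with the match in capitals because this gene had the largest change of the 10 with NRF2.
GSTP1: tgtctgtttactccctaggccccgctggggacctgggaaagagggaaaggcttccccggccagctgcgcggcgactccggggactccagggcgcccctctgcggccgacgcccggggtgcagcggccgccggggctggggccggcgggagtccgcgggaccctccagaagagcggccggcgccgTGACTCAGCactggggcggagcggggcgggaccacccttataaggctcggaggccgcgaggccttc

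Matches were also found in members that were not called. The following stretches show each match before the start of another member with up to 20 bases on either side, the matched letters in capitals; they lie at chr6:52995285-52995313 (minus strand) for GSTA4, chr1:109687632-109687680 for GSTM1, chr1:109667936-109667984 for GSTM2, chr1:109655868-109655916 for GSTM4, chr7:143263379-143263427 for GSTK1, and chr10:104254646-104254694 and chr10:104254711-104254759 for the pair in GSTO1. In GSTM4 the capitals are the reverse complement of TGAGGCTGC, which lies on the minus strand.
GSTA4: tctcacccagccgggaccgcTGACCTGGC
GSTM1: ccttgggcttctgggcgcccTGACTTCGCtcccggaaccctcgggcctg
GSTM2: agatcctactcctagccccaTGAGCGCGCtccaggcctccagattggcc
GSTM4: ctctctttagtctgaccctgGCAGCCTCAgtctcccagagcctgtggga
GSTK1: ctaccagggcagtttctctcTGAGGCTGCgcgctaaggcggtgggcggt
GSTO1 first match: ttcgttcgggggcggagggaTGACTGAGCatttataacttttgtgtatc
GSTO1 second match: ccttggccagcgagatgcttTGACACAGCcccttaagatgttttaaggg

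Only after the start were TGAGAAGGC of GSTM3 (10 to 18) and TGACAAAGC of MGST1 (31 to 39, at the first of its starts) found, while the other MGST1 windows and the GSTZ1 window held neither form. Thus 9 of 10 members had at least 1 match, where 33.7% of 27305 genes with a window did. Of the 35116 windows, 13.3% held TGACNNNGC and 18.3% held TGAGNNNGC. A match is a string of letters, not a shown binding site, and factor binding was not measured in these libraries.

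Before any transgene effect, the 10 genes differed widely in level. Per kilobase of transcript (the median length of the coding transcripts of a gene in GENCODE release 29), GSTP1 was the most abundant with empty vector at 498 CPM per kb and made up 53.0% of the sum over the 10 genes. MGST1 followed at 140 CPM per kb, then GSTO1 at 103 CPM per kb and GSTK1 at 83.4 CPM per kb. GSTM3, the most abundant mu class gene, had 39.1 CPM per kb and GSTA4 had 31.1 CPM per kb. GSTZ1, which also isomerises maleylacetoacetate in tyrosine breakdown, had 19.9 CPM per kb, GSTM2 16.3 CPM per kb, GSTM4 7.53 CPM per kb and GSTM1 2.04 CPM per kb. The 3 empty vector libraries kept neighbours in this order apart, but the order rests on the length used: with the longest transcript GSTM3 (15.1 CPM per kb) ranked below GSTA4 (29.9 CPM per kb), and MGST1 (96.1 CPM per kb) and GSTO1 (95.1 CPM per kb) were close. In the NRF3 libraries the ranges of GSTO1 and GSTK1 overlapped, as did those of GSTM3 and GSTA4, and in the NRF1 libraries those of GSTO1 and GSTK1 and of GSTZ1 and GSTM2. With NRF2, GSTP1 reached 730 CPM per kb and 60.1% of the sum.

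**Figure D1:**
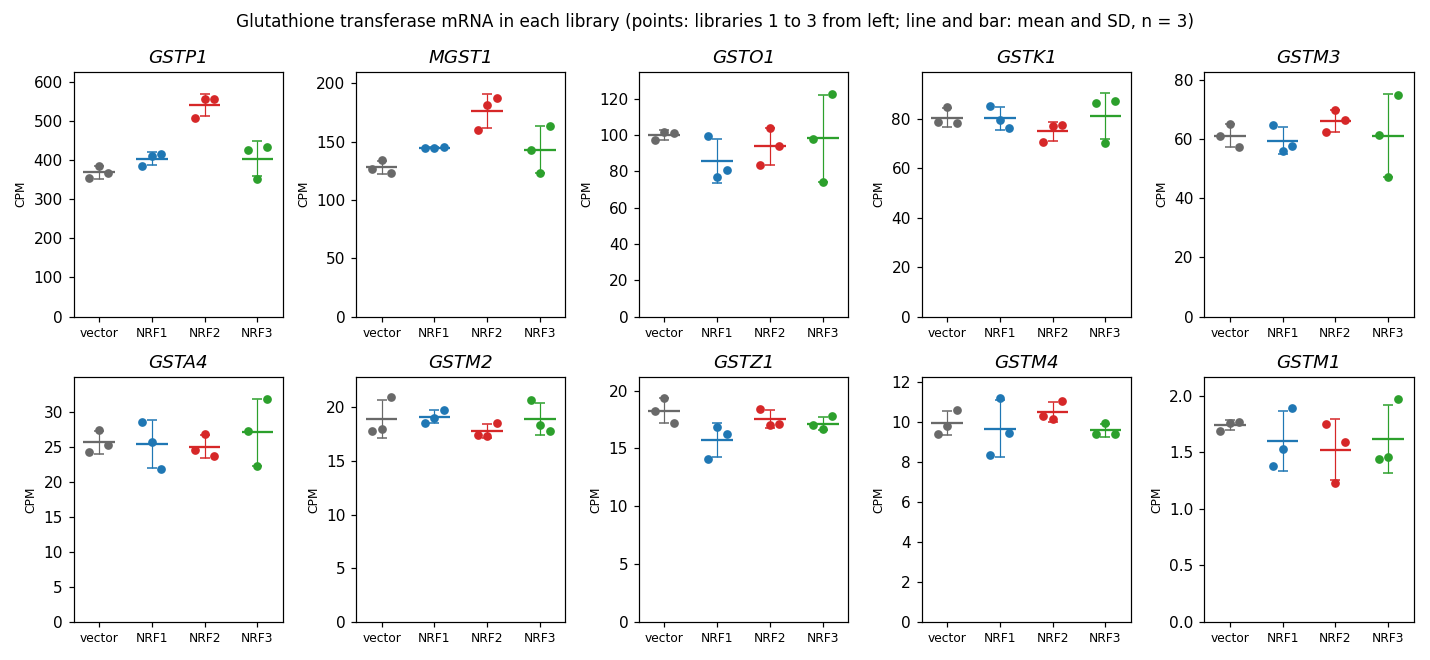
CPM of each of the 10 glutathione transferase genes in the 12 libraries (x axis, condition; y axis, CPM from 0 on a linear scale of its own for each gene; points, libraries 1 to 3 from left; line and bar, mean and SD, n = 3). The 3 NRF2 libraries of GSTP1 lie between 509 and 557 CPM, above every other library of that gene, and GSTM1 stays between 1.22 and 1.97 CPM.

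GSTP1 and MGST1 rose with NRF2, and no other member was called in either direction. GSTP1, the pi class enzyme and the usual transferase of proliferating cells, had 354, 386 and 368 CPM in the empty vector libraries and 509, 557 and 557 CPM in the NRF2 libraries. All 3 NRF2 libraries were above all 3 controls. Its mean rose from 369 ± 16.3 CPM to 541 ± 28.0 CPM (SD, n = 3), a log2 fold change of 0.55 ± 0.08 (SE), or 1.47-fold (95% interval 1.30 to 1.65), and the adjusted p from the quasi-likelihood test of edgeR, by Benjamini and Hochberg's method over 15135 genes, was 0.000307. MGST1, the microsomal transferase of the endoplasmic reticulum and outer mitochondrial membrane, which also reduces lipid hydroperoxides, had 127, 134 and 123 CPM with empty vector and 160, 182 and 188 CPM with NRF2. Again the groups did not overlap. MGST1 rose from 128 ± 5.68 CPM to 176 ± 14.6 CPM (SD, n = 3), and the log2 fold change was 0.46 ± 0.09 (SE), or 1.38-fold (95% interval 1.21 to 1.57), with an adjusted p of 0.00366.

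These 2 were the members called higher with NRF2, and 0 were called lower, by edgeR and likewise by DESeq2, where 4.68% of all genes tested were called higher, 5.81% lower and 10.5% in either direction. Both changes were moderate among the genes NRF2 raised: of 709 such genes, whose median log2 fold change was 0.44, 267 had a larger log2 fold change than GSTP1 and 333 a larger one than MGST1. The methods of the study name an unequal variance test and its results section a DESeq-based analysis, with no adjustment stated. The former, run here on log2 CPM and with an adjustment over the genes tested, gave adjusted p-values of 0.0743 for GSTP1 and 0.142 for MGST1, so neither was called by it in this form. With an added threshold of 0.5 on the absolute log2 fold change, GSTP1 was called and MGST1, at 0.46, was not. This threshold is a cut on the estimate of the same fit, not a new test.

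The mu class did not change detectably with NRF2. GSTM3, a form known from brain and testis, had 57.4 to 65.1 CPM with empty vector and 62.3 to 70.0 CPM with NRF2, and the log2 fold change was 0.11 (95% interval -0.15 to 0.38). For GSTM2, the form known from muscle, the values were 17.8 to 20.9 CPM and 17.3 to 18.6 CPM (log2 fold change -0.09, interval -0.29 to 0.12), and for GSTM4 they were 9.41 to 10.6 CPM and 10.1 to 11.1 CPM (0.08, interval -0.17 to 0.33). Libraries of both conditions overlapped for each of these genes. GSTM1 was close to the detection limit with 17 to 26 counts per library over the 12 libraries, and its log2 fold change of -0.19 had an interval of -0.67 to 0.29. Values of GSTM1, GSTM2 and GSTM4 are uncertain, since 58.5%, 48.6% and 11.7% of the 50-base stretches of their longest coding transcripts also occur in transcripts of other genes, and neither the counting of such reads nor the use of strand is given in the sources used here. GSTM1 and GSTM2 share most with each other, and their exons overlap on the same strand over 22.3% of the GSTM1 exon bases. GSTP1, MGST1, GSTK1, GSTA4 and GSTZ1 had no 50-base stretch in common with another gene.

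GSTK1, the mitochondrial kappa class enzyme, was the 1 member whose NRF2 libraries lay below all controls (70.6, 77.2 and 77.4 CPM against 78.7, 84.8 and 78.2 CPM). Its log2 fold change was -0.10 (95% interval -0.28 to 0.08; adjusted p 0.501), and 17.6% of all genes tested had NRF2 libraries that lay below in this way (17.8% lay above, as GSTP1 and MGST1 did). GSTA4, an alpha class enzyme with high activity towards 4-hydroxynonenal from lipid peroxidation, had 24.3 to 27.5 CPM with empty vector and 23.7 to 26.8 CPM with NRF2 (log2 fold change -0.04, interval -0.30 to 0.23). GSTO1, the omega class thioltransferase and dehydroascorbate reductase, had 97.1 to 102 CPM and 83.5 to 104 CPM (-0.09, interval -0.40 to 0.22), and GSTZ1 had 17.2 to 19.3 CPM and 17.1 to 18.4 CPM (-0.06, interval -0.26 to 0.14). For the 8 members not called, the upper ends of the intervals ran from 1.06-fold for GSTK1 to 1.30-fold for GSTM3, which is the size of increase that these libraries leave possible. The median log2 fold change of the 10 members was -0.05, against 0.00 over all genes tested. Summed over the 10 genes, the transferases came to 813 ± 31.0 CPM with empty vector and 1025 ± 58.6 CPM with NRF2 (SD, n = 3), whereas the sum without GSTP1 and MGST1, a split made after their values were seen, was 316 ± 10.2 CPM and 308 ± 17.7 CPM.

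**Figure D2:**
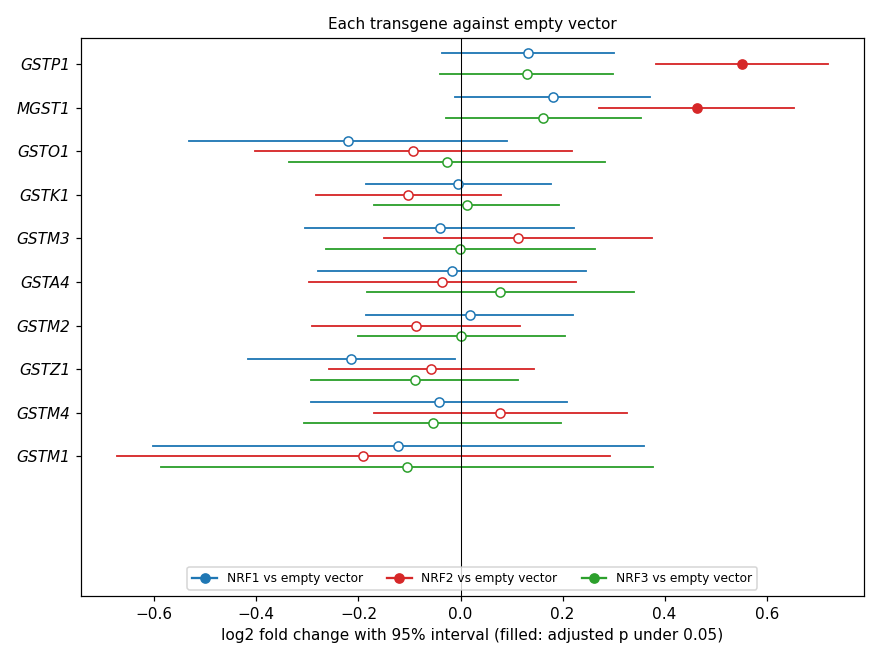
Log2 fold change of each member against empty vector for NRF1, NRF2 and NRF3 (x axis; points, edgeR estimates; bars, 95% intervals; filled points, adjusted p under 0.05). The filled points are GSTP1 at 0.55 and MGST1 at 0.46, both with NRF2, and every other interval with NRF2 includes 0.

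No member was called with NRF1. The count was 0 of 10 by edgeR and by DESeq2, with 1 member at an unadjusted p under 0.05, where 1.75% of all genes tested were called and 17.4% had such an unadjusted p. GSTP1 had 386, 411 and 416 CPM, the lowest of which lay within the range of the controls, and a log2 fold change of 0.13 (95% interval -0.04 to 0.30; adjusted p 0.418). MGST1 had 145, 145 and 145 CPM, a mean of 145 ± 0.380 CPM (SD, n = 3), above all 3 controls. Its counts of 1990 to 2000 lay closer together than counting error alone usually leaves them, so this SD does not measure precision. The log2 fold change of MGST1 was 0.18 (interval -0.01 to 0.37, adjusted p 0.320). GSTZ1 had 14.1, 16.9 and 16.3 CPM against 18.2, 19.3 and 17.2 CPM in the controls, all NRF1 libraries below, with a log2 fold change of -0.21 (interval -0.42 to -0.01; adjusted p 0.265), and it was the member at an unadjusted p under 0.05. Of all genes tested, 15.0% had NRF1 libraries that lay above all controls as MGST1 did, and 15.9% had them below as GSTZ1 did. GSTO1 was at 99.5, 77.0 and 81.0 CPM, with library 1 among the controls and the others below them, which stood at 97.1 to 102 CPM (log2 fold change -0.22, interval -0.53 to 0.09). The mu class members, GSTA4 and GSTK1 had log2 fold changes between -0.12 (GSTM1) and 0.02 (GSTM2). The median over the 10 members was -0.03, against -0.01 over all genes. A fit of the NRF1 and empty vector libraries alone called MGST1 higher (adjusted p 0.0212) and GSTO1 lower (adjusted p 0.0496), where the fit over all 12 libraries called neither.

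With NRF3, again 0 of 10 members were called by edgeR and by DESeq2, and 0 had an unadjusted p under 0.05, where 0.0264% of all genes tested were called and 4.11% had such an unadjusted p. GSTP1 had 427, 352 and 433 CPM, so that library 2 was below all controls and libraries 1 and 3 above them, and its log2 fold change was 0.13 (95% interval -0.04 to 0.30; adjusted p 0.994). MGST1 had 143, 123 and 164 CPM, a log2 fold change of 0.16 (interval -0.03 to 0.35; adjusted p 0.994). GSTO1 spread from 74.3 to 122 CPM and GSTM3 from 47.1 to 75.1 CPM, ranges that take in every control library of both genes. No member had NRF3 libraries clear of the controls, compared with 3.95% of all genes above and 4.64% below. The median log2 fold change of the members was 0.00, against 0.00 over all genes. Library 2 was the lowest of the 3 NRF3 libraries for 7 of 10 members and library 3 the highest for 8 of 10. On the log2 scale the median deviation of the members from their condition mean was -0.20 in library 2, 0.15 in library 3 and 0.02 in library 1.

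**Figure D3:**
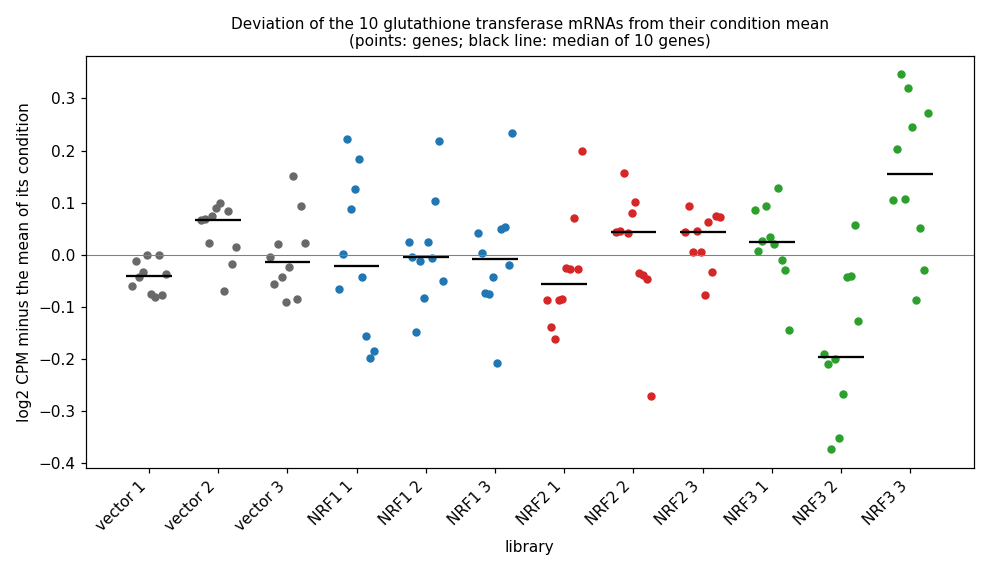
Deviation of log2 CPM from the mean of its condition for the 10 genes in each of the 12 libraries (points, genes; black line, median of the 10 genes). NRF3 library 2 lies low with a median of -0.20 and NRF3 library 3 high with a median of 0.15.

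The direct comparisons asked whether the members differed between transgenes. They use the same NRF2 libraries as the comparison with empty vector, and they are not independent of it. GSTP1 was higher with NRF2 than with NRF1, the log2 fold change being 0.42 (95% interval 0.25 to 0.59; adjusted p 0.00892) and higher than with NRF3, again by 0.42 (interval 0.25 to 0.59; adjusted p 0.00451), with no overlap between libraries in either case. It was the 1 member called in each comparison, where 1.04% of genes were called higher with NRF2 than with NRF1 and 2.42% higher than with NRF3 (1.25% and 5.17% in either direction). The call against NRF1 was lost without NRF1 library 1 (adjusted p 0.0691), NRF2 library 2 (0.0584) or NRF2 library 3 (0.0622), and the call against NRF3 was lost when those 2 groups alone were fitted (adjusted p 0.0748). Both calls were also lost under the unequal variance test on log2 CPM (adjusted p 0.261 against NRF1 and 0.471 against NRF3). The added log2 threshold of 0.5 is a cut on the estimate and leaves out both, at 0.42, without a new test. Between NRF1 and NRF3, GSTP1 differed by a log2 fold change of 0.00, with an interval of -0.17 to 0.17.

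For MGST1 the larger value with NRF2 was not called against either transgene, although neither interval included 0. Against NRF1 the log2 fold change was 0.28 (95% interval 0.09 to 0.47; adjusted p 0.199), with NRF2 libraries of 160 to 188 CPM above the NRF1 libraries at 145 CPM. Against NRF3 it was 0.30 (interval 0.11 to 0.49; adjusted p 0.0654), and NRF3 library 3 at 164 CPM lay above NRF2 library 1 at 160 CPM. DESeq2 called the difference from NRF3 (adjusted p 0.0358). Of 12 edgeR fits that each left out 1 library, 1 called it, the fit without NRF3 library 3 (adjusted p 0.00316). Over these 12 fits its log2 fold change ran from 0.20 to 0.41, and the adjusted p went up to 0.203. The difference from NRF1 was called in 2 of the 12 fits, with an adjusted p of up to 0.503. When all NRF3 libraries were left out of the fit, a choice made after seeing the data, the difference from NRF1 was called (adjusted p 0.00781). GSTP1, MGST1 and GSTZ1 had NRF2 libraries clear above NRF1 (10.0% of all genes did), and GSTP1 and GSTM4 had them clear above NRF3 (9.74%). GSTM4 differed from NRF3 by 0.13 (interval -0.12 to 0.38) and GSTZ1 from NRF1 by 0.16 (interval -0.05 to 0.36), both uncalled. Between NRF1 and NRF3, 0 of 10 members were called by edgeR and by DESeq2 and 0 had an unadjusted p under 0.05 (0.396% of all genes were called and 11.7% had such an unadjusted p), and the log2 fold changes ran from -0.19 for GSTO1 to 0.02 for MGST1.

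**Figure D4:**
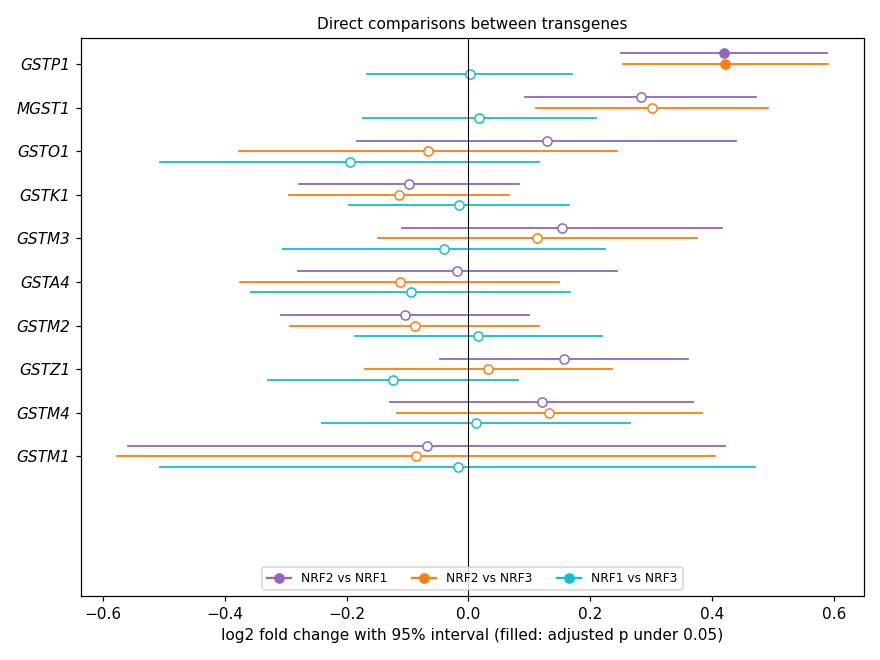
Log2 fold change of each member between transgenes (x axis; points, edgeR estimates; bars, 95% intervals; filled points, adjusted p under 0.05). GSTP1 is filled at 0.42 for NRF2 against NRF1 and 0.42 for NRF2 against NRF3, and all 10 intervals for NRF1 against NRF3 include 0.

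By the root mean square difference over the 3 log2 fold changes against empty vector, 2 of the 3 genes closest to GSTP1 among 11717 compared were DIXDC1, a DIX domain protein of WNT signalling (0.0249), and IL18R1, an interleukin receptor (0.0261). Their log2 fold changes with NRF2 were 0.54 and 0.59, and those with NRF1 and NRF3 were between 0.12 and 0.16. IL18R1 was called with NRF2 (adjusted p 0.0350) and DIXDC1 was not (adjusted p 0.0579).

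The transferases were set beside the genes that supply their substrate. Of 6 genes for glutathione supply, 5 rose with NRF2 and 0 fell, where 4.68% of all genes tested were called higher and 5.81% lower, with a median log2 fold change of 1.16 over the 6. The cystine carrier SLC7A11 rose from 8.33 ± 0.420 CPM to 74.0 ± 15.8 CPM (SD, n = 3; log2 fold change 3.15) and its partner chain SLC3A2 by 0.71 on the log2 scale. GCLM and GCLC, which encode the modifier and catalytic subunits of glutamate-cysteine ligase, the first enzyme of glutathione synthesis, rose by 2.82 and 0.79, and GSR, which reduces oxidised glutathione, rose by 1.52. GSS, the enzyme of the last step of synthesis, had a log2 fold change of -0.05 (95% interval -0.20 to 0.10). The log2 fold changes of all 5 were larger than that of GSTP1. GCLM was the 1 gene of this list called with NRF1 (0.95, adjusted p 3.4e-05) and with NRF3 (0.59, adjusted p 0.0163), where 1.75% and 0.0264% of all genes were called.

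Other transferases and the steps after conjugation were counted in the same way. Of 17 further genes for transferases and related proteins, 15 were matched and 6 had enough counts to be tested. Of these 6, 0 were called with NRF1, NRF2 or NRF3 by edgeR or DESeq2, with 0 at an unadjusted p under 0.05. Since 1.75%, 10.5% and 0.0264% of all genes tested were called with NRF1, NRF2 and NRF3, 0 of 6 does not set these genes apart. The 3 most abundant with NRF2 were the prostaglandin E synthase PTGES2 (log2 fold change 0.00, 95% interval -0.13 to 0.14) and the microsomal MGST3 (-0.10, interval -0.36 to 0.16) and MGST2 (0.02, interval -0.19 to 0.22). The alpha class genes GSTA1, GSTA2 and GSTA5 had no count in any library, which again allows up to 3 counts in each. Of 20 genes for conjugate export and mercapturate formation 19 were matched and 9 were tested, with 0 called by edgeR or DESeq2 for each transgene and 2, 2 and 0 at an unadjusted p under 0.05 with NRF1, NRF2 and NRF3, where 17.4%, 24.5% and 4.11% of all genes tested had such an unadjusted p. ABCC1, the exporter of glutathione conjugates, had 50.4 ± 2.30 CPM with empty vector and 61.2 ± 6.31 CPM with NRF2 (SD, n = 3), and its log2 fold change was 0.28 (interval 0.03 to 0.53; adjusted p 0.150). ABCC5, a related exporter, had a log2 fold change of 0.10 (interval -0.05 to 0.25). ABCC1 and GGT7 were the genes of this list at an unadjusted p under 0.05 with NRF2. GGT7 went down, with a log2 fold change of -0.22 (interval -0.43 to -0.0011), and was not called by edgeR (adjusted p 0.201). GSTT1, GSTT2 and NAT8B were not analysed here.

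**Figure D5:**
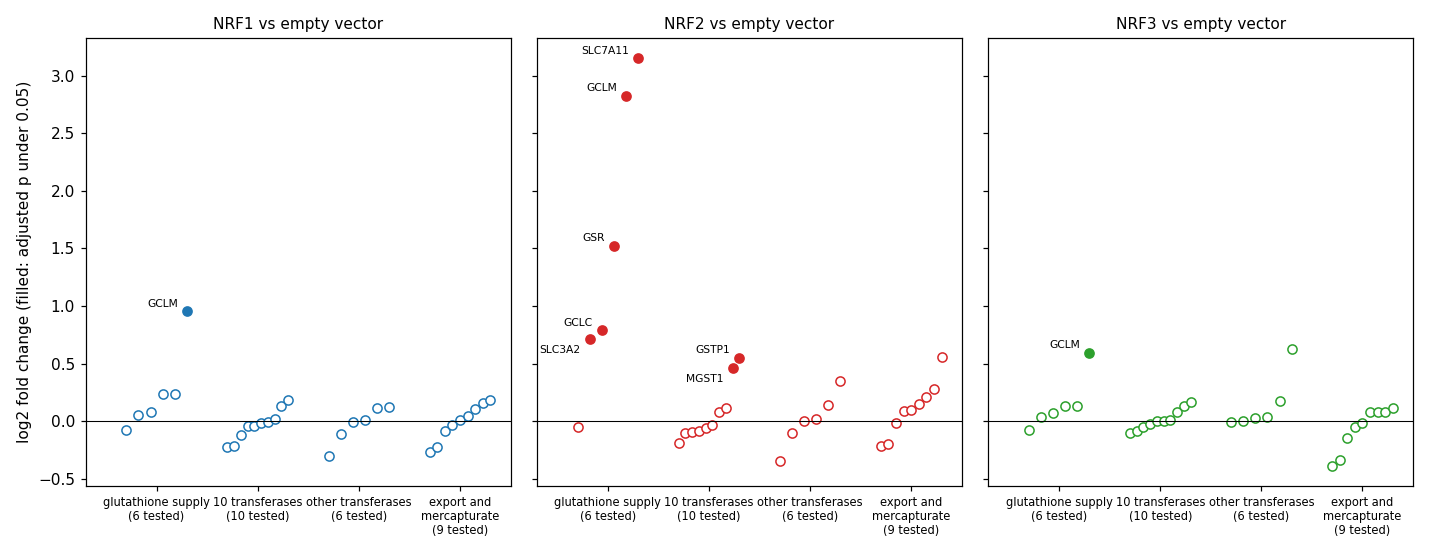
Log2 fold change against empty vector (y axis) of the tested genes for glutathione supply, the 10 transferases, other transferases, and conjugate export with mercapturate formation, for NRF1, NRF2 and NRF3 (points, genes; filled, adjusted p under 0.05). With NRF2, 5 of 6 supply genes are filled, from 0.71 to 3.15, against GSTP1 at 0.55 and MGST1 at 0.46 among the transferases.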

How the data were processed

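RNA of 12 libraries (4 conditions, 3 libraries each) was sequenced at BGI. The authors estimated transcript abundance with the DNASTAR Lasergene Genomics Suite, and the submitters' notes give the genome build GRCh37.p13. The suite's version, counting rules, strand setting and annotation: not given in the sources used here. Deposited values are estimated counts per gene, unscaled between libraries. A filler of 0.009 stands for no count (45.8% of values, none of the 10 transferases), and the 5.96% of other values that are not whole were rounded. Total counts of 13452524 to 14014316 set the precision, and the limit of 3 counts given for a count of 0 covers counting error only.

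Analyses used R 4.3.3, edgeR 4.0.16, limma 3.58.1, DESeq2 1.42.0 and Python 3.11.15. Genes were kept by filterByExpr (minimum count 10), scaled with TMM factors, and tested two-sided in one quasi-likelihood fit of 4 conditions; calls needed a Benjamini-Hochberg adjusted p under 0.05 over 15135 genes. CPM uses the scaled library sizes. The comparisons with empty vector share its 3 libraries. No 2 libraries of a condition agreed within sampling noise. The p-values rest on the spread between libraries within conditions, estimated jointly over all 4 conditions, the NRF3 libraries included.

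Named genes are all 10 members, and from 3 further lists the called genes or, where none was called, up to 3 of the most abundant. GSS, GGT7 and the alpha class genes without a count were added after their values were seen. Genes most like a member were sought for members called at an absolute log2 fold change of at least 0.5. Of the genes these rules name, 2 are not reported here. The members and lists were chosen with earlier results of these data known. The unequal variance test named in the study's methods was run as an alternative, since counts need a count model. Other alternatives were DESeq2, other scalings and filters, 2 groups per fit, removal of the transfected genes, a replicate block and leaving out each library. Scripts were tested on simulated data. Motif matches and sequences are from RefSeq (GRCh38.p14), transcript lengths and shared stretches from GENCODE release 29, and neither is of the build used for counting.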

Additional observations from a re-analysis of the deposited data

How the results depend on the processing

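GSTP1 with NRF2 against empty vector kept its call in all 12 fits that left out 1 library (log2 fold change 0.52 to 0.59, highest adjusted p 0.00437), and so did MGST1 (0.42 to 0.52, highest adjusted p 0.0279). No result reversed past the threshold. The number of members called against empty vector changed from 2 to 1 with NRF2 under the added log2 threshold and to 0 under the unequal variance test on log2 CPM, and from 0 to 2 with NRF1 when those 2 groups alone were fitted. For NRF2 against NRF1 the count of 1 became 2 in the fit of 2 groups only, 0 under the log2 threshold and 0 under the unequal variance test, and 0 to 2 as single libraries were left out. For NRF2 against NRF3 it became 2 with total count scaling, 2 with no filter and 2 with DESeq2, 0 with 2 groups only, 0 under the log2 threshold, 0 under the unequal variance test, and 1 to 2 as single libraries were left out. The log2 threshold only removes estimates under 0.5 from the same fit, and the cause of the other changes was not tested.

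Fits chosen after seeing the data, which kept only library 1 of NRF3 or left NRF3 out, raised the count for NRF2 against NRF1 to 2 in both, and the first gave 2 for NRF2 against NRF3, where the lone NRF3 library is assumed to vary like the other groups. Replicate numbers did not pair the libraries: deviations from the condition mean correlated between -0.258 and 0.0840 over 18 pairs of libraries with the same number and between -0.291 and 0.360 over 36 other pairs. With the numbers as a replicate block the counts of members called were 0, 2 and 0 for NRF1, NRF2 and NRF3 against empty vector, and 1, 1 and 0 for NRF2 against NRF1, NRF2 against NRF3 and NRF1 against NRF3, and no call changed.

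With 3 libraries a condition, depth limits GSTM1 most (17 to 26 counts), which a minimum count of 50 removed. For the members not called with NRF2, increases of up to 1.30-fold remain within the 95% intervals. The share of transfected cells was not measured, and the protein levels, which the study measured by mass spectrometry, were not analysed here.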
